A study of Mus musculus with 24 samples.

Results

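The collagen and laminin genes of the mouse testis were followed in *Atad2* KO and WT pups through the days on which the first spermatids appear. Members were taken by symbol alone, as every gene named Col, a number, a and a number, or Lam, one of a, b or c, and a number. The rule gave 55 of the 24456 genes listed in each count table, 44 of them collagen chains and 11 laminin chains. Of these, 54 had enough counts to be tested. *Col10a1*, the collagen of hypertrophic cartilage, had 0 to 3 counts per library and was not.

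Testes came from WT pups and from pups homozygous for the *Atad2* KO allele, taken at postnatal days 20, 22, 24 and 26. Days 20 and 22 had 4 WT and 4 KO libraries each, and days 24 and 26 had 2 and 2. In the KO allele, a *lacZ* cassette traps the transcript and a Cre driven by the CMV promoter, active in all tissues, had removed the *neo* cassette and the exon that follows, so the change is not limited to a cell type. Strain was not given in the sources used here. The libraries of a group are labelled as replicates, which the study calls biological, of which the study's text gives fewer at day 20 than the labels do, and nothing says whether each came from its own litter. The labels give testis as the tissue, and the study describes these libraries as RNA of harvested testes, with round spermatid fractions kept as a separate data set, although the protocol in the labels also names a purification of spermatogenic cells. In bulk RNA, fewer cells of a type and less RNA per cell cannot be told apart.

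Collagens are triple helices of α chains that form the fibrils, beaded filaments and sheet-like networks of connective tissue. Laminins are cross-shaped trimers of an α, a β and a γ chain, and together with collagen IV they make up basement membranes. In the testis a basement membrane separates the seminiferous tubule from its sleeve of peritubular myoid cells: Sertoli cells and myoid cells both deposit it, while stromal cells of the interstitium and of the capsule are known for the fibrillar collagens. Germ cells are not known as a main source of either, and their number grows as the first wave of spermatogenesis proceeds.

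Assigned counts ran from 10709667 to 19491935 per library, so that 3 counts, used as the floor of detection, correspond to 0.153 to 0.316 CPM, the count divided by the library's assigned counts and put on a common total. Read pairs carried no molecular identifiers, and these limits cover counting error only. *Atad2* itself lay at 76.1 to 171.3 CPM in the WT libraries and at 30.8 to 53.0 CPM in the KO libraries, with no overlap at any day, and the KO allele removes only part of the exons counted. Every marker of the Sertoli, peritubular myoid, Leydig and pachytene lists was above the floor in every group, which fits the label testis. Not all libraries were alike. *Crisp1*, an epididymal secretory gene, was at 10 CPM or more in 9 libraries (WT_d20_3, KO_d20_3, WT_d22_3, WT_d22_4, KO_d22_1, WT_d24_2, KO_d24_2, WT_d26_2 and KO_d26_2) and at or under 1.87 CPM in the other 15. Of the same list of 8 epididymal markers, *Adam7* was at 0.466 to 65.6 CPM in these 9 libraries and at most 0.288 CPM in the other 15. The list's *Lcn8* and *Lcn9* were at 0 in most groups. WT_d20_2 stood apart in composition, and KO_d22_4 had the lowest sums of myoid (450.2 CPM) and endothelial (30.7 CPM) markers of its group.

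Collagen and laminin genes together took between 0.212% (KO_d22_4) and 0.870% (WT_d20_3) of assigned counts. The share was 0.650% ± 0.1503 (SD, n = 4) in WT and 0.574% ± 0.159 in KO at day 20, and 0.5825% ± 0.117 against 0.327% ± 0.104 at day 22. At day 24 it was 0.654% ± 0.202 in WT (n = 2) and 0.504% ± 0.0175 in KO, and at day 26 it was 0.470% ± 0.0654 and 0.334% ± 0.0317. At day 22 the lowest WT library, at 0.482%, lay above the highest KO library, at 0.440%. The 11 fibrillar collagens gave 44.6% of the members' summed mean CPM, the 6 chains of collagen IV 17.6%, the α laminins 10.1% and the 6 chains of collagen VI 9.42%.

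Levels of different genes were compared per kb of exon. *Col3a1*, the chain of fibrillar collagen III, stood first with a mean of 104.3 CPM per kb over the 24 libraries, before the collagen I chains *Col1a1* (65.6) and *Col1a2* (53.9). *Col6a1* of the beaded filaments (41.6) and *Col4a1* of basement membranes (33.4) followed, then *Lamc3* (33.1) and *Lamb2* (26.9) as the leading laminin chains. *Lama2* was the leading α chain (23.8) and *Lama1*, the α chain of early basement membranes, lay at 7.98. The chains known from epidermal laminin were scarce, with *Lama3* at 0.753 and *Lamb3* at 0.284 CPM per kb. Ratios between chains were steadier for some pairs than for others over the 24 libraries. *Col4a1* to *Col4a2* ran from 1.26 to 1.65, *Col4a3* to *Col4a4* from 1.03 to 1.53 and *Col3a1* to *Col1a2* from 1.62 to 2.42. *Col4a5* to *Col4a6* ran from 3.995 to 7.87 and *Lamb2* to *Lamb1*, which are alternative β chains, from 1.28 to 3.03. The ratio of the alternative α chains *Lama2* and *Lama1* spanned more, from 1.27 in KO_d22_4 to 5.53 in WT_d20_2. Both libraries stood out above, and the wider span rests on them.

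Collagen IV chains are encoded head to head. *Col4a3* (chromosome 1, 82586921 to 82722059, plus strand) and *Col4a4* (chromosome 1, 82448423 to 82586849, minus strand) have starts 72 bases apart, *Col4a1* and *Col4a2* on chromosome 8 have overlapping starts 21 bases apart, and *Col4a5* and *Col4a6* on chromosome X start 1309 bases apart. The stretch between the first pair is shown because both genes are transcribed away from it and both fell with age, and the 250 bases before the RefSeq start of 5 other members are shown because the results below turn on them: *Col25a1* and *Col5a1* for a lower level in KO, *Col27a1* for a higher one, *Col3a1* as the leading collagen and *Lama2* as the leading α laminin. Sequences are those of RefSeq on GRCm38.p6 and hold no base of a GENCODE M21 exon. Capitals mark the TATA motif (TATAAA), the CCAAT box or the GC box (GGGCGG), searched on both strands, with no overlap between the matches shown.
Col4a4 and Col4a3, chr1:82586850-82586920, minus strand: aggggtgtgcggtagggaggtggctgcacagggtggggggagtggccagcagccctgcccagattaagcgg
Col25a1, chr3:130180595-130180844, plus strand: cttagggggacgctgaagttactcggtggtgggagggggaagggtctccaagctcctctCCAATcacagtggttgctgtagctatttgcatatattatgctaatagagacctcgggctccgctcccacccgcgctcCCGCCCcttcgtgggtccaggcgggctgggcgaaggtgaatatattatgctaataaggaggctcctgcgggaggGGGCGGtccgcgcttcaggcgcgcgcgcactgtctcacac
Col27a1, chr4:63215162-63215411, plus strand: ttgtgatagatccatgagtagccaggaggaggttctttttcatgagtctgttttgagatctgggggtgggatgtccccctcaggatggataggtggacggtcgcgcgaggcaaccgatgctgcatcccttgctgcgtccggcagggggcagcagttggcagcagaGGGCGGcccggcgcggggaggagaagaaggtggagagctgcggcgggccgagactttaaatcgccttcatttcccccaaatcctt
Col3a1, chr1:45311288-45311537, plus strand: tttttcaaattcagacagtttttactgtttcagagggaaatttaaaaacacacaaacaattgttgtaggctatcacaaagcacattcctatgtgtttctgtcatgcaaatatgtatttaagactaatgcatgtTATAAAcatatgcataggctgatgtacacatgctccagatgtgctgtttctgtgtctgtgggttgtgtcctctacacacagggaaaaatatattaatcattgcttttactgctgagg
Col5a1, chr2:27886175-27886424, plus strand: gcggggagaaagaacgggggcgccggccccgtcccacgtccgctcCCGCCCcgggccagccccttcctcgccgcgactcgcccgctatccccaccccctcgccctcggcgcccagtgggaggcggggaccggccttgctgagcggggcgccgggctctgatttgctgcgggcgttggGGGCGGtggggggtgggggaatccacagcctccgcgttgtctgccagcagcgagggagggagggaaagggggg
Lama2, chr10:27616943-27617192, minus strand: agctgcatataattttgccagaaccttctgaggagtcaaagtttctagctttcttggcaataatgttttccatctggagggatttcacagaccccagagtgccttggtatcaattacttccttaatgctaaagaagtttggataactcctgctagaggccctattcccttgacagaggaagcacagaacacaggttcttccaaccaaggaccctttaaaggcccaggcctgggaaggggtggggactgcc
The windows of *Col25a1*, *Col27a1* and *Lama2* lie inside the longer GENCODE gene, before an inner start. Base composition spanned 35.2% G and C upstream of *Col3a1* to 76.4% upstream of *Col5a1*. *Col25a1* held a CCAAT and 2 GGGCGG motifs, the nearer ending 35 bases before the start, and *Col5a1* held 2 GGGCGG motifs. The TATAAA of *Col3a1* begins 117 bases before its start, and no searched motif fell in the windows of *Lama2* or of the *Col4a3* and *Col4a4* pair. RefSeq windows were found for 40 members, with 44 starts. GGGCGG lay in 24 of these 44 windows (54.5%), against 32.7% of 32851 mouse windows of the same length. CCAAT lay in 14 (31.8%, against 33.8%) and TATAAA in 5 (11.4%, against 12.4%). The palindromic cyclic-AMP element TGACGTCA was in 0 of the 44, against 1.55% of all windows. These matches describe the letters only.

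*Col25a1*, a transmembrane collagen known from neurons and developing muscle (chromosome 3, 130131501 to 130599877, plus strand), was the member that separated the genotypes. At day 20 it lay at 8.49, 7.27, 8.84 and 8.35 CPM in WT and at 4.06, 4.19, 2.84 and 3.52 CPM in KO. At day 22 the WT libraries were at 5.85, 6.10, 5.13 and 6.70 CPM and the KO libraries at 3.57, 3.31, 2.77 and 2.41 CPM. At day 24 the levels were 4.47 and 6.86 in WT and 2.28 and 2.09 in KO, and at day 26 they were 5.79 and 6.89 in WT and 2.75 and 2.58 in KO. The groups did not overlap at any day, and the lowest of the 12 WT libraries (4.47) was above the highest of the 12 KO libraries (4.19). The log2 fold change of KO against WT was -1.18 ± 0.17 (SE; adjusted p = 0.000979) at day 20, -0.98 ± 0.17 (adjusted p = 0.00473) at day 22 and -1.37 ± 0.25 (adjusted p = 0.0222) at day 24. At day 26 it was -1.25 ± 0.24 with an adjusted p of 0.0556, and DESeq2 gave -1.20 with an adjusted p of 0.00657. Averaged over the 4 days the difference was -1.19 ± 0.11 (adjusted p = 3.67e-07), a level 2.28-fold lower in KO. Without the 9 libraries with *Crisp1* that average was -1.03 (adjusted p = 0.0162), while the calls of days 20, 22 and 24 were lost at -1.04, -1.05 and -0.98, with fewer libraries, and the call of day 24 was also lost without WT_d24_2, KO_d24_1 or KO_d24_2. Fitting only the 2 groups of a day ended the same 3 calls (-1.18, -0.96 and -1.37, adjusted p = 0.106, 0.0515 and 0.194) and made one at day 26, and scaling to the Sertoli list ended that of day 24 (-1.44, adjusted p = 0.144).

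**Figure D1:**
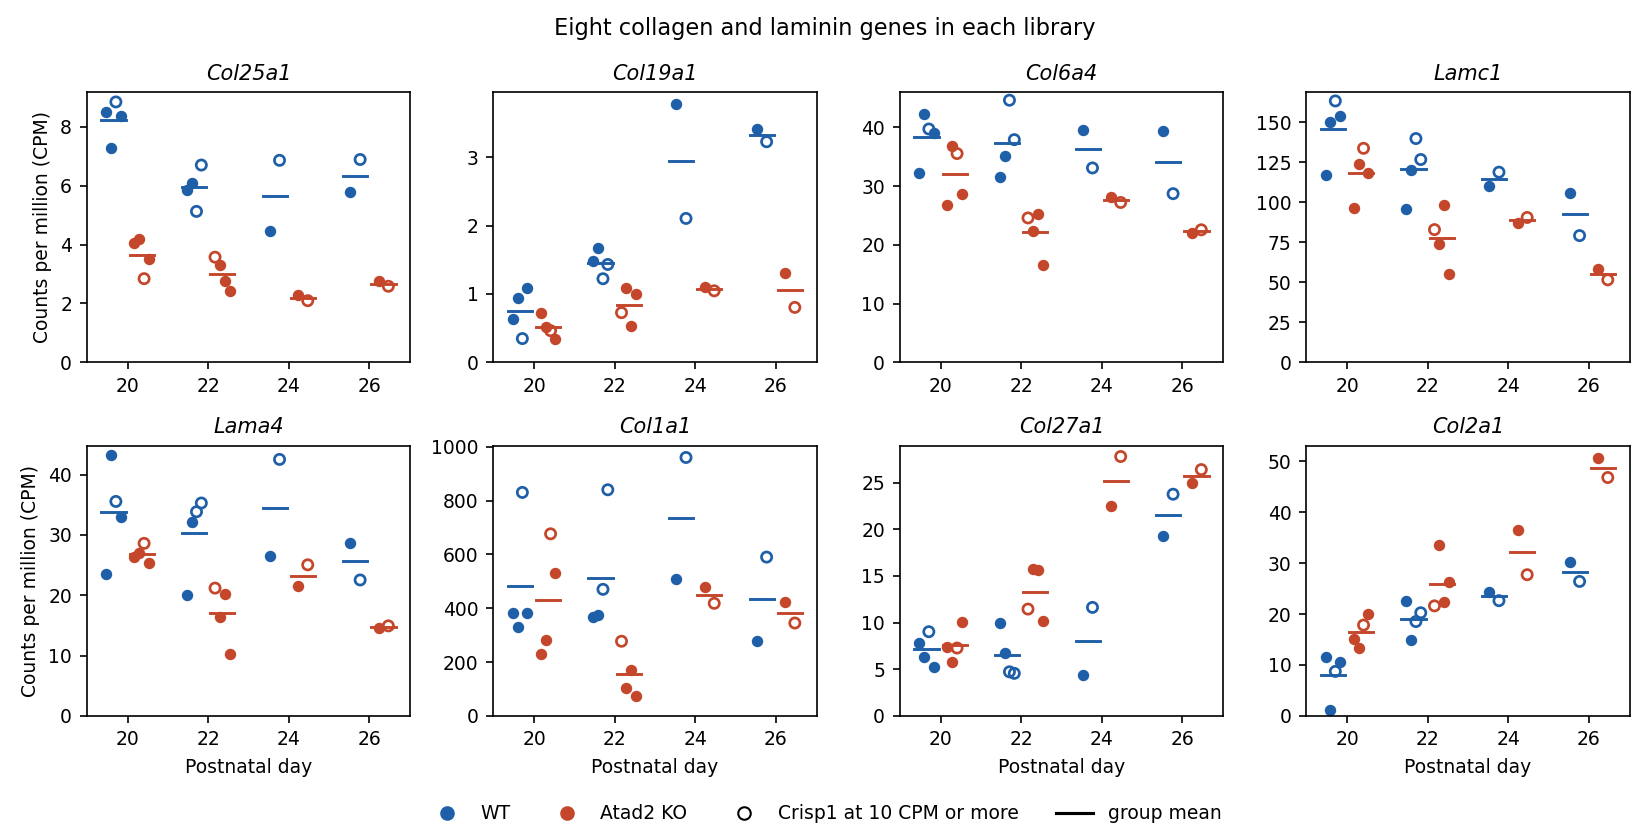
Level of 8 members in each library, in CPM on linear axes from 0, by postnatal day, with WT in blue, *Atad2* KO in red, open symbols for the 9 libraries with *Crisp1* at 10 CPM or more and a bar for each group's mean. *Col25a1* was at most 4.19 CPM in every KO library and at least 4.47 CPM in every WT library, whereas for *Col1a1* the open symbols are the highest of most groups.

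Over all members, 1 was called at day 20 (*Col25a1*, lower) where 3.34% of the 17170 genes tested were called, 0.361% lower and 2.98% higher. At day 22, 13 members were called, 12 lower and 1 higher in KO, against 2.51% of all genes, 1.25% lower and 1.26% higher. At day 24, 1 member was called, *Col25a1* again, against 0.0874% (0.0699% lower and 0.0175% higher). At day 26 edgeR called 0 members against 0.0466% of all genes, with 13 members at an unadjusted p under 0.05 (11.5% of all genes) and 1 called by DESeq2. In the mean of the 4 daily differences 13 members were called, 11 lower and 2 higher, against 7.08%, and 8 of them were also called at day 22. At day 22, 42 of the 54 members had a log2 fold change below 0, without a test, against 47.9% of all genes, and 28 had an unadjusted p under 0.05, against 14.6%. The median log2 fold change of the members was -0.48 at day 22 and -0.34 in the mean of the days, beside 0.01 and 0.01 for all genes. Libraries of KO lay entirely below those of WT for 1 member at day 20, where 1.68% of all genes did so, for 14 at day 22 (4.45%), for 20 at day 24 (21.4%) and for 27 at day 26 (31.1%). They lay entirely above for 1 (3.03%), 1 (3.64%), 10 (22.6%) and 6 (27.8%), so that at days 24 and 26 the members' counts are to be read against a high background. The calls of day 22 rested on few libraries. Their number was 1 without WT_d22_3 or without WT_d22_4, 2 without KO_d22_2, 5 without KO_d22_4, 6 without WT_d22_2 and 19 without KO_d22_1. It was 0 when only the groups of day 22 were fitted, where 0.438% of all genes were called. Without the 9 libraries with *Crisp1*, which left 2 WT and 3 KO libraries at day 22 and 1 per genotype at days 24 and 26, *Col14a1* alone was called at day 22 (0.111% of all genes) and *Col25a1* alone in the mean of the days (0.199%). The members' median log2 fold change in that fit was -0.484 at day 22, against -0.477 with all libraries, and -0.185 in the mean, against -0.335. With all libraries and the mean log2(CPM + 1) of the epididymis list as a covariate, 18 members were called at day 22, 12 of the 13 among them, and 11 in the mean, all of them among the 13.

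Fibrillar collagens, the most abundant class, were lower in KO at day 22 for both chains of collagen I. *Col1a1* (chromosome 11, 94936224 to 94953042) was at 369, 376, 470.3 and 840.5 CPM in WT and at 277, 102, 172 and 75.6 CPM in KO at day 22, so the groups did not overlap. The difference was -1.71 ± 0.45 (adjusted p = 0.0483), and the call survived in 5 of 24 refits, each lacking 1 library. At day 20 the same gene lay at 382, 332, 831 and 383 CPM in WT and at 230.2, 281, 677 and 529.5 in KO, overlapping widely (log2 fold change -0.17, adjusted p = 0.937). *Col1a2*, its partner chain, fell at day 22 by 1.35 ± 0.34 (adjusted p = 0.0410), with WT and KO apart. *Col3a1* showed -1.46 ± 0.39 with all KO libraries below all WT libraries, but its adjusted p was 0.0521. In 6 of the 8 groups, the library highest in *Crisp1* was also highest in each of these 3 genes, and the part of that in the differences was not tested.

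The fibril-nucleating *Col5a1* was at 72.3, 78.5, 91.9 and 114 CPM in WT and at 53.3, 39.6, 56.2 and 29.4 CPM in KO at day 22. Every KO library lay below every WT library. The log2 fold change was -1.001 ± 0.22 (adjusted p = 0.0227), and -0.59 ± 0.14 in the mean of the days (adjusted p = 0.0176), which was not called without WT_d24_2, without KO_d26_2 or without the libraries with *Crisp1* (-0.36), and was called with the epididymis covariate (-0.49, adjusted p = 0.0133). *Col5a3*, a chain of the same heterotrimers, had a mean log2 fold change of -0.97 ± 0.23 (adjusted p = 0.0193), not called without WT_d24_2, KO_d24_1, KO_d26_1 or KO_d26_2. Called in the other direction were 2 fibrillar members. *Col27a1*, a fibrillar chain known from cartilage, stood at 9.93, 6.69, 4.72 and 4.55 CPM in WT and at 11.4, 15.7, 15.6 and 10.1 CPM in KO at day 22, without overlap. It was higher by 1.04 ± 0.28 at day 22 (adjusted p = 0.0465, called in 8 of the 24 refits lacking 1 library) and by 0.76 ± 0.17 on average (adjusted p = 0.0120), which was called in all 24 such fits and not without the libraries with *Crisp1* (0.945, adjusted p = 0.115). At day 24 its level was 4.34 and 11.6 CPM in WT and 22.5 and 27.8 CPM in KO (log2 fold change 1.66, adjusted p = 0.155). *Col2a1*, the main collagen of cartilage, was 0.68 ± 0.20 higher on average (adjusted p = 0.0464), a call kept in 6 of 24 such fits. Its lowest library was WT_d20_2, at 1.16 CPM beside 11.5, 8.73 and 10.5 in the other WT libraries of day 20. Of the 11 fibrillar genes, 3 fell and 1 rose at day 22, and 2 fell and 2 rose in the mean.

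**Figure D2:**
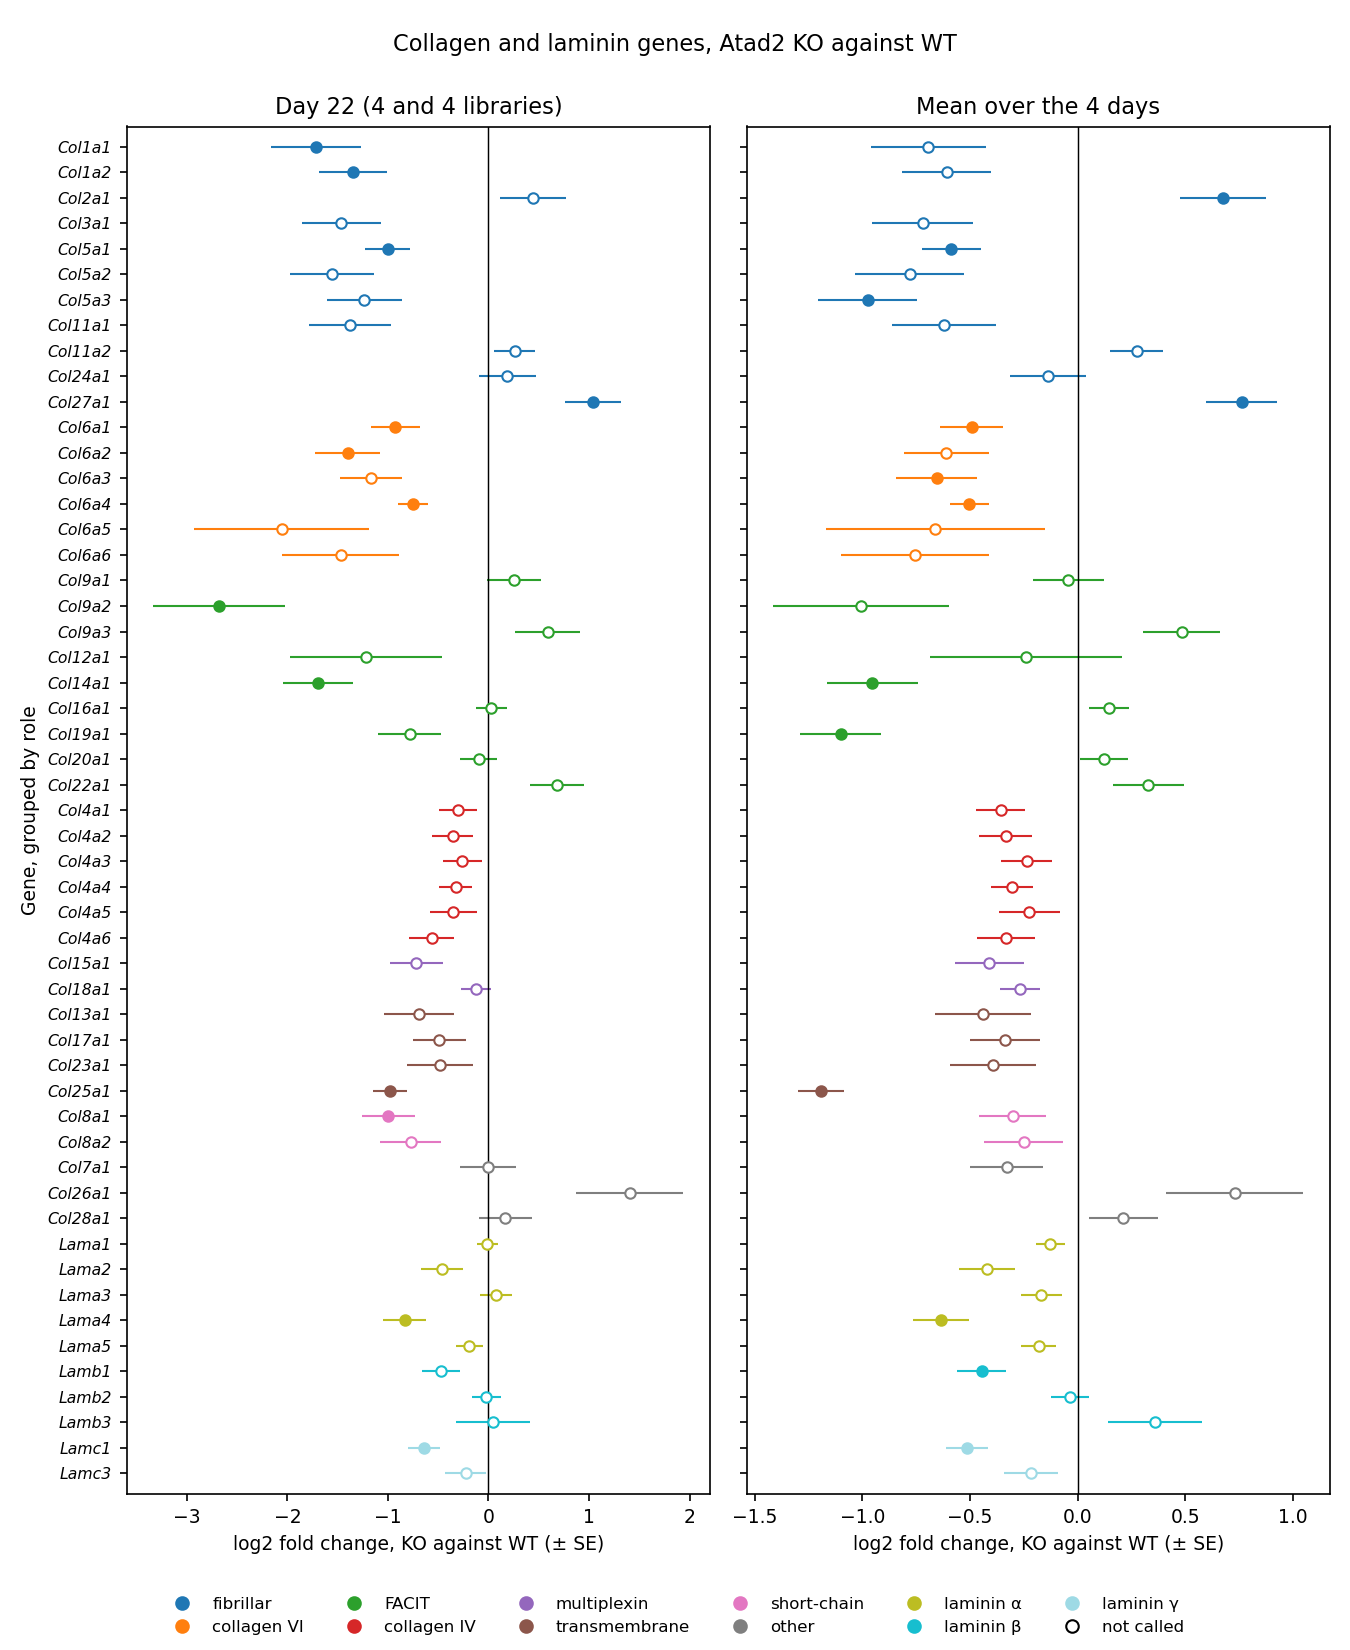
Log2 fold change of *Atad2* KO against WT with its standard error for 53 tested members, ordered by role, at day 22 (left) and as the mean over the 4 days (right), filled where called at an adjusted p under 0.05. All 6 chains of collagen VI and all 6 of collagen IV lie left of 0 in both panels, the former further out, and the filled points right of 0 are *Col27a1* in both panels and *Col2a1* in the mean.

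Collagen VI builds the beaded filaments that surround cells in connective tissue. All 6 of its genes had negative log2 fold changes at day 22, with a median of -1.28, and 3 were called. *Col6a4* was at 31.6, 35.04, 44.6 and 37.9 CPM in WT and at 24.6, 22.4, 25.2 and 16.6 CPM in KO at day 22, with no overlap. Its difference was -0.75 ± 0.15 (adjusted p = 0.0132) at day 22 and -0.50 ± 0.09 in the mean (adjusted p = 0.00297), where it was called in all 24 refits lacking 1 library. *Col6a1* was at 192, 202, 212 and 261 CPM in WT and at 158, 88.9, 145 and 64.96 CPM in KO. The KO libraries were again all lower, with -0.93 ± 0.24 (adjusted p = 0.0453) at day 22 and -0.49 ± 0.15 (adjusted p = 0.0478) on average. *Col6a2* fell by 1.402 ± 0.33 at day 22 (adjusted p = 0.0292), and *Col6a3*, whose long chain completes the trimer, fell by 0.65 ± 0.19 on average (adjusted p = 0.0418). Of the 24 refits lacking 1 library, *Col6a1* was called in 6 at day 22 and 5 in the mean, *Col6a2* in 19 and *Col6a3* in 7. None of the calls of these 4 genes held without the libraries with *Crisp1*, where the log2 fold changes at day 22 were -0.97 for *Col6a1*, -1.42 for *Col6a2* and -0.61 for *Col6a4*, and those of the mean were -0.38, -0.39 and -0.56 for *Col6a1*, *Col6a3* and *Col6a4*. With the epididymis covariate, all of these calls but the mean of *Col6a1* (adjusted p = 0.0564) were made.

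Among the FACIT collagens, which sit on the surface of fibrils, *Col14a1* was at 26.6, 30.2, 43.3 and 70.2 CPM in WT and at 22.0, 10.7, 10.0 and 9.86 CPM in KO at day 22. All KO libraries lay below, 3 of them close together and KO_d22_1 apart from them. The log2 fold change was -1.70 ± 0.35 (adjusted p = 0.0177), and -1.45 (adjusted p = 0.0490) without the libraries with *Crisp1*. The call was lost without WT_d22_3, WT_d22_4 or KO_d22_2. *Col19a1*, known from muscle differentiation, was at 1.48, 1.67, 1.223 and 1.43 CPM in WT and at 0.726, 1.08, 0.527 and 1.01 CPM in KO at day 22. At day 24 it was at 3.79 and 2.11 CPM in WT and at 1.11 and 1.05 CPM in KO, and at day 26 at 3.42 and 3.23 CPM in WT and at 1.31 and 0.803 CPM in KO. WT lay above KO in all libraries of these 3 days. On average it fell by 1.101 ± 0.19 (adjusted p = 0.00183), in all 24 refits lacking 1 library but not without the libraries with *Crisp1* (-1.17, adjusted p = 0.149). *Col9a2* fell by 2.68 ± 0.66 at day 22 (adjusted p = 0.0331), at levels of 1.13, 0.669, 1.86 and 2.40 CPM in WT and 0.545, 0.120, 0.132 and 0.134 CPM in KO, 3 of the KO libraries holding 2 counts each, below the floor, so the size of the fold change is uncertain. Of the network-forming short-chain collagens, *Col8a1* was called at day 22 (-0.995 ± 0.26, adjusted p = 0.0469), with overlapping groups.

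Of the 6 chains of basement membrane collagen IV, edgeR called 0 at day 22 and 0 in the mean of the days. At an unadjusted p under 0.05 there was 1 at day 22 and there were 4 in the mean (23.2% of all genes), and DESeq2 called 0 at day 22 and 2 (*Col4a1* and *Col4a4*) in the mean. The log2 fold changes were nonetheless all below 0, from -0.57 to -0.26 at day 22 and from -0.36 to -0.22 in the mean. For *Col4a1* the mean difference was -0.36 ± 0.12 (adjusted p = 0.0631) and for *Col4a4* it was -0.30 ± 0.10 (adjusted p = 0.0631). *Col4a3* and *Col4a4*, the pair whose shared upstream stretch is shown above, lay at -0.24 and -0.30. *Col18a1*, the multiplexin from which endostatin is cut, had -0.27 ± 0.09 (adjusted p = 0.0874).

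Of the 11 laminin genes, 2 were called at day 22 and 3 in the mean of the days, all lower in KO. *Lamc1*, the γ chain of most laminins, was at 95.5, 120.2, 139.8 and 127 CPM in WT and at 82.9, 73.7, 98.4 and 55.2 CPM in KO at day 22. The groups touched, KO_d22_3 being above WT_d22_1. The difference was -0.64 ± 0.16 (adjusted p = 0.0355, called in 17 of the 24 fits) at day 22 and -0.51 ± 0.10 on average (adjusted p = 0.00412). *Lama4*, the α chain of vessels and other mesenchymal basement membranes, was at 20.0, 32.2, 33.8 and 35.3 CPM in WT and at 21.2, 16.4, 20.2 and 10.3 CPM in KO at day 22. Here 2 KO libraries lay just above the lowest WT library, and the difference was -0.83 ± 0.22 (adjusted p = 0.0420, called in 10 of the 24 refits lacking 1 library), with -0.63 ± 0.13 in the mean (adjusted p = 0.00875). *Lamb1*, the partner of *Lamc1* in the laminins of early basement membranes, had a mean difference of -0.45 ± 0.11 (adjusted p = 0.0268), a call lost without WT_d24_2, KO_d24_1, KO_d24_2, WT_d26_1, KO_d26_1 or KO_d26_2. For *Lamc1* and *Lama4* the mean call held in all 24 refits lacking 1 library and ended without the libraries with *Crisp1*, at -0.49 and -0.58. With the epididymis covariate both were called (adjusted p = 0.00649 and 0.0110).

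The remaining laminin chains did not pass the test. *Lama2*, the merosin α chain, was nearest with -0.42 ± 0.13 in the mean (adjusted p = 0.0509). *Lama1* was at -0.13 ± 0.07, *Lama5* at -0.18 ± 0.08 and *Lama3* at -0.17 ± 0.10. *Lamb2* stood at -0.04 ± 0.09 and *Lamc3*, the abundant γ chain, at -0.22 ± 0.13. *Lamb3* was the single laminin gene with a positive value, at 0.36 ± 0.22 (adjusted p = 0.345).

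**Figure D3:**
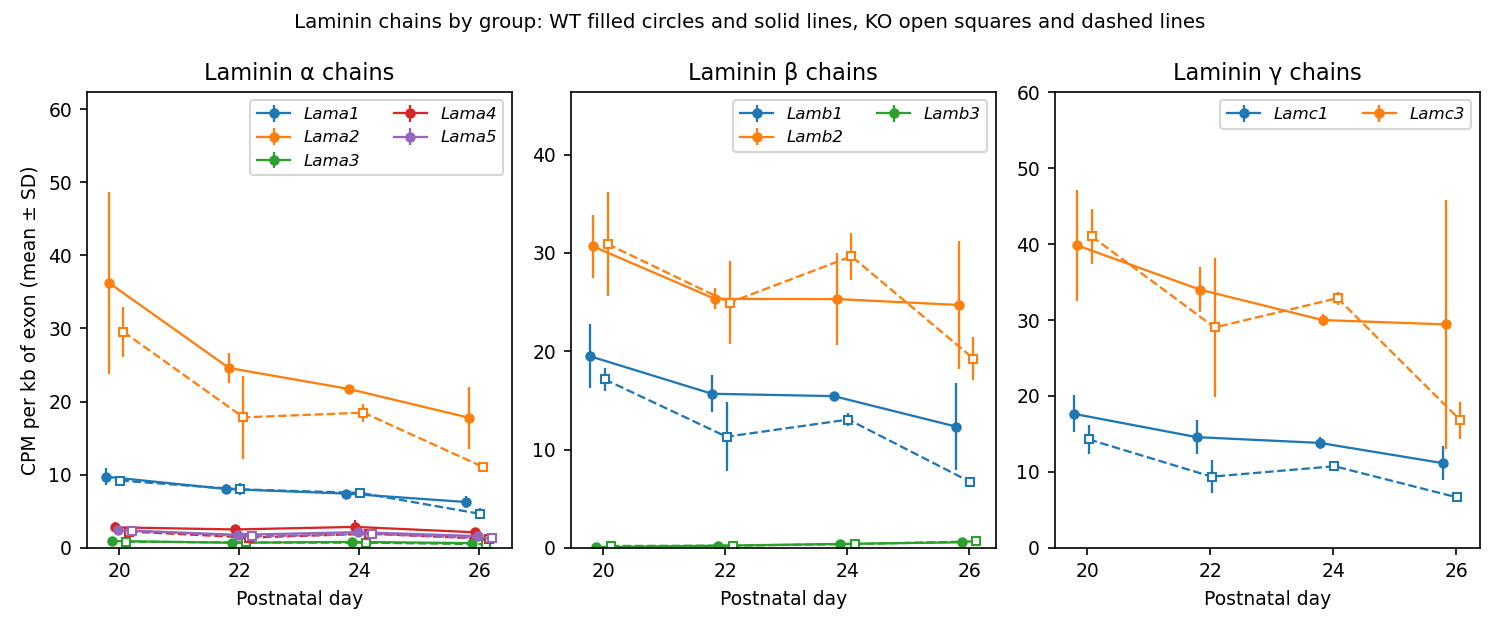
Mean level of 10 laminin chains per group in CPM per kb of exon, with the SD over 4 libraries (days 20 and 22) or 2 libraries (days 24 and 26), WT as filled circles on solid lines and KO as open squares on dashed lines. *Lama2*, *Lamb2* and *Lamc3* lead their classes, and for *Lamb1* and *Lamc1* the KO mean is below the WT mean on each day.

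Tested jointly over the 4 days, a difference in KO effect was called for 0 members with edgeR and 0 with DESeq2, against 0.00582% of all genes with edgeR, and 2 members, *Col27a1* and *Col9a2*, had an unadjusted p under 0.05. The larger number of calls at day 22 therefore does not show a larger effect on that day.

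Marker genes of other cells moved with the genotype beside these results. At day 22, 0 of 8 peritubular myoid, 1 of 8 endothelial and 2 of 8 stromal markers were called, all of the latter lower. In the mean of the days, 4 of 8 peritubular myoid markers and 4 of 8 endothelial markers were lower in KO, with *Myh11*, a smooth muscle myosin, at -0.53 ± 0.12 (adjusted p = 0.0122) and *Pecam1*, an endothelial adhesion molecule, at -0.57 ± 0.14 (adjusted p = 0.0205). The summed myoid markers ranged from 788.5 to 1106 CPM in WT and from 450.2 to 822.7 CPM in KO at day 22, and the summed endothelial markers from 71.1 to 78.7 and from 30.7 to 61.8 CPM. The 6 mesothelium and tunica markers had the lowest median at day 22, -1.46, with 5 below 0 and 0 called, and a median of 1.48 at day 26. Their sums overlapped at day 22, at 90.4 to 123.6 CPM in WT and 76.3 to 114.5 CPM in KO. This list shares *Wt1* with the Sertoli list, so its sums are not of mesothelium alone. The 4 tested rete and efferent duct markers were all below 0 at day 22 (median -0.901), with 0 called there and in the mean. Of the 8 stromal markers 2 were lower in the mean, of the 12 Sertoli markers 0 were called, and 1 of the 8 Leydig markers was higher. Sertoli sums overlapped at day 22, at 1793 to 2147 CPM in WT and 1805 to 2574 in KO. Among germ cells, 0 of 8 spermatogonia and 0 of 8 pachytene markers were called in the mean of the days with edgeR, with 1 and 3 at an unadjusted p under 0.05. In the same comparison, 4 of 8 round spermatid markers and 8 of 8 elongating spermatid markers were higher in KO. At day 22 the elongating spermatid sum ran from 46.8 to 102.7 CPM in WT. In KO_d22_1 to KO_d22_4 it was 101.1, 649.5, 286.3 and 117.1 CPM, so the upper limit rests on KO_d22_2. The part of these markers in the differences of the collagen and laminin genes was not tested.

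Genes that act on collagens and laminins were counted from lists drawn up beside the members. Of 25 partners of collagen fibrils 9 were lower and 0 higher in the mean of the days, where 3.56% of all genes were lower and 3.52% higher. Among them, *Tnc*, which encodes the matrix glycoprotein tenascin-C, was lower by 1.76 ± 0.20 (log2 fold change -1.76, the lowest adjusted p of the list), *Thbs2* by 0.81 ± 0.15 (-0.81, adjusted p = 0.00316), *Fbn1*, the main microfibril protein, by 0.59 ± 0.12 (-0.59, adjusted p = 0.00639) and *Tnxb* by 0.83 ± 0.17 (-0.83, adjusted p = 0.00648). Other basement membrane genes gave 6 lower of 16 tested, with *Hmcn1*, the giant hemicentin, at -0.91 ± 0.12 (adjusted p = 6.35e-05), *Smoc2* at -0.60 ± 0.13 and *Nid1*, which bridges laminin and collagen IV, at -0.40 ± 0.09 (adjusted p = 0.0157).

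Enzymes that cleave and crosslink collagen gave 4 lower of 15: *Pxdn*, which links collagen IV protomers, at -0.65 ± 0.09 (adjusted p = 9.03e-05), *Loxl2*, a lysyl oxidase, at -0.72 ± 0.12 (adjusted p = 0.000841), *Tll2* at -1.404 ± 0.26 (adjusted p = 0.00396) and *Adamts2*, which removes the propeptide of fibrillar collagens, at -0.50 ± 0.11 (adjusted p = 0.0150). Of 25 receptors 4 were lower, led by *Itga1*, the α subunit of a collagen-binding integrin, at -0.67 ± 0.10 (adjusted p = 0.000536). Genes of collagen modification and secretion gave 3 lower of 21 tested, and matrix proteases and their inhibitors 5 lower of 18. No gene of these 6 lists was higher in that comparison, and their median log2 fold changes lay between -0.41 (fibril partners) and -0.17 (modification and secretion), beside -0.34 for the members.

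Changes with age were read between day 20 and day 26, and the share of members called was not above that of all genes in either genotype. In WT, 19 members were called, 8 higher and 11 lower, where 42.5% of all genes were called, 24.4% higher and 18.1% lower. In KO, 27 were called, 9 higher and 18 lower, against 52.2%, 27.2% higher and 24.9% lower. The WT calls were 19 of 19 among the KO calls, or 19 of 27 of these, each with the same direction. This overlap was not counted over all genes, so it is not read as a result about the members. The ages did not overlap for 13 members lower and 10 higher in WT (22.5% and 27.9% of all genes) and for 24 and 10 in KO (35.9% and 34.1%). Age and the rise of the spermatid share cannot be told apart in bulk RNA, the elongating spermatid sum going from 2.001 to 8.93 CPM in WT at day 20 to 2066 to 3214 CPM at day 26, and in KO from 7.06 to 121.2 CPM to 3330 to 3357 CPM. At day 20, 8 of 8 round and 4 of 8 elongating spermatid markers were already called higher in KO than in WT. Directions here also depend on the scaling. Scaled to the Sertoli marker list, the median of all genes moved to 0.68 in WT and to 0.30 in KO, and the WT calls became 14 higher and 1 lower. The members still had the smaller median on that scale, 0.41 in WT and -0.13 in KO. Without the libraries with *Crisp1*, which left 1 library per genotype at day 26, 5 members were called in WT (16.5% of all genes) and 9 in KO (17.7%).

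Laminins made up much of the set that fell. Of 11 chains, 6 fell in WT and 9 in KO, and in each genotype *Lamb3* alone rose. *Lama2* was at 417, 886, 523 and 541 CPM in WT at day 20 and at 339.9 and 241 CPM at day 26. In KO it was at 455, 560.3, 483 and 432 CPM and then at 186 and 174 CPM. Neither genotype's ages overlapped, with log2 changes of -1.03 ± 0.27 (adjusted p = 0.00416) in WT and -1.42 ± 0.27 (adjusted p = 0.000260) in KO. *Lama1* fell by 0.63 ± 0.14 in WT (adjusted p = 0.000809) and by 0.99 ± 0.14 in KO (adjusted p = 1.14e-05), and *Lamc1* by 0.66 ± 0.20 and 1.11 ± 0.20. *Lama5*, the α chain of mature epithelial basement membranes, fell by 0.59 ± 0.17 and 0.87 ± 0.17, *Lama3* by 0.53 ± 0.20 and 0.76 ± 0.20, and *Lamb1* by 0.66 ± 0.24 (WT) and 1.35 ± 0.24 (KO). Without WT_d26_2, the WT calls of *Lama2*, *Lama5*, *Lamb1* and *Lamc1* were lost. *Lama4*, *Lamb2* and *Lamc3* were called in KO only, *Lamc3* with -1.29 ± 0.27 (adjusted p = 0.000569) there. In WT it was at 206, 232, 226 and 307 CPM on day 20 and at 249.7 and 109 CPM on day 26, so that WT_d26_1 lay within the day 20 range. Scaled to the Sertoli list, the WT values of *Lama1*, *Lama3*, *Lama5*, *Lamb1* and *Lamc1* turned positive, between 0.03 and 0.22, and none of these 5 passed the test, while *Lama2* stayed below 0 (-0.36, adjusted p = 0.371).

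Among the chains of collagen IV, *Col4a3* and *Col4a4* fell in both genotypes. *Col4a3* was at 240.2, 464, 301 and 322 CPM in WT at day 20 and at 211 and 141 CPM at day 26. In KO it went from 209.9, 279.7, 279 and 253 CPM to 140.3 and 112 CPM, so that the ages were apart in each genotype. The log2 change was -0.91 ± 0.25 in WT (adjusted p = 0.00545, lost without WT_d26_2) and -1.02 ± 0.25 in KO (adjusted p = 0.00206). *Col4a4*, transcribed from the other side of the shared stretch, changed by -0.73 ± 0.20 (adjusted p = 0.00619) and -1.099 ± 0.21 (adjusted p = 0.000204). *Col4a1* and *Col4a2*, the chains of the common network, were called in KO alone, at -0.99 ± 0.24 and -0.93 ± 0.26, with -0.41 and -0.37 in WT, while *Col4a5* and *Col4a6* were called in neither. Scaled to the Sertoli list, no collagen IV chain was called in WT, where *Col4a3* was at -0.24, *Col4a4* at -0.05 and the other 4 above 0, and *Col4a4* alone was called in KO (-0.73, adjusted p = 0.0259). *Col18a1* fell by 0.95 ± 0.20 in WT and by 1.14 ± 0.20 in KO, with -0.20 (adjusted p = 0.337) and -0.77 (adjusted p = 0.00123) on the Sertoli scale. *Col13a1*, a transmembrane collagen known from the neuromuscular junction, was at 1.34, 2.74, 2.72 and 1.87 CPM in WT at day 20 and at 0.869 and 0.933 CPM at day 26, and in KO at 2.76, 3.204, 1.52 and 1.29 CPM and then at 0.964 and 0.402 CPM. The ages did not overlap, and it fell by 1.26 ± 0.46 in WT (adjusted p = 0.0315, lost without WT_d20_3, WT_d26_1 or WT_d26_2) and by 1.70 ± 0.48 in KO (adjusted p = 0.00548, lost without KO_d26_2), the WT call was lost on the Sertoli scale (-0.53), and neither call held without the libraries with *Crisp1* (-1.16 in WT and -1.28 in KO, with 1 library per genotype at day 26). Beside them, 8 of 12 Sertoli markers and 5 of 8 myoid markers were lower at day 26 in WT, and 8 of 12 and 6 of 8 in KO. The myoid marker *Actg2* was higher in both, and of the 8 Leydig markers 8 were higher in WT and 3 in KO. The part of these markers in the changes was not tested.

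**Figure D4:**
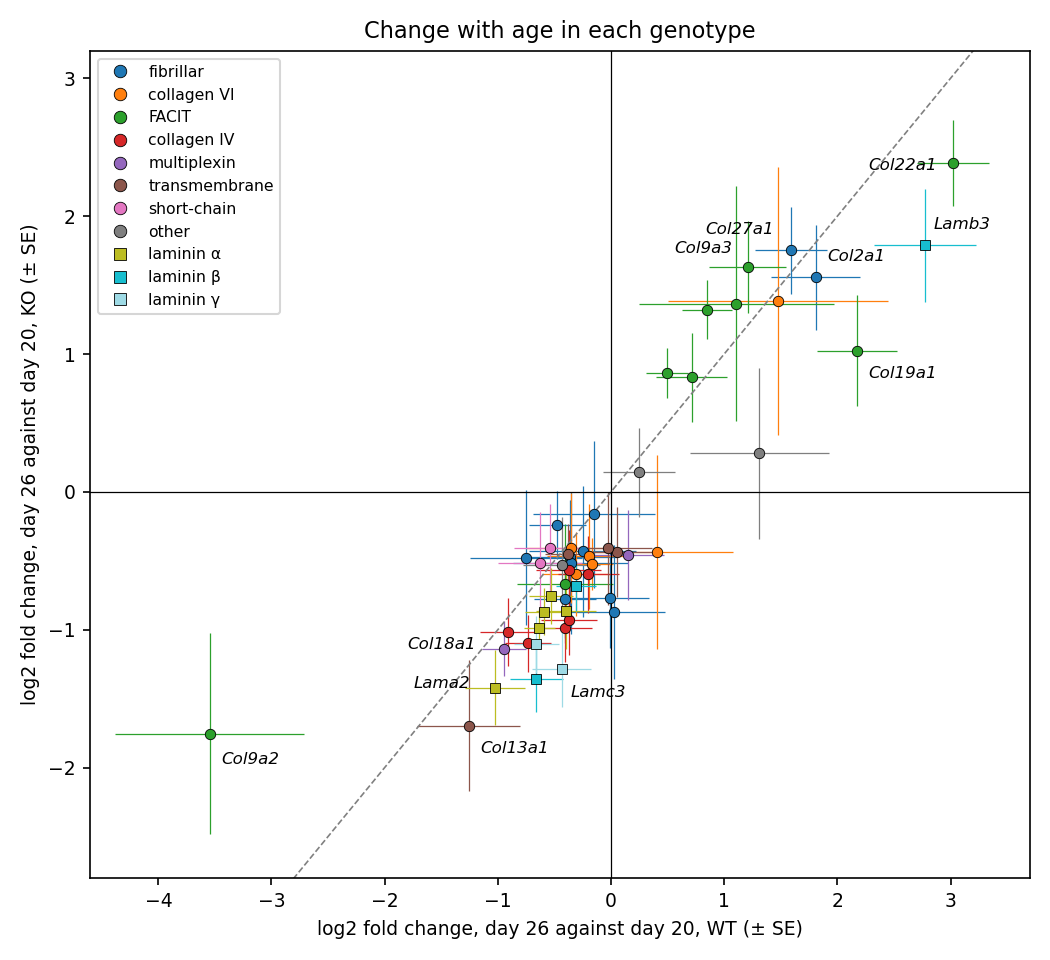
Log2 change from day 20 to day 26 in WT (horizontal) against that in *Atad2* KO (vertical) for 53 tested members, coloured by role, with standard errors as bars and a dashed line of equal change. Most laminin and collagen IV chains lie below 0 on both axes, and *Col22a1* and *Lamb3* lie furthest to the upper right.

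The members that rose were mostly of low level, many of them FACIT collagens. *Col22a1*, known from tissue junctions such as that of muscle and tendon, was at 6.76, 5.16, 4.51 and 7.70 CPM in WT at day 20 and at 49.1 and 48.9 CPM at day 26. In KO it was at 6.31, 5.23, 10.5 and 12.7 CPM and then at 48.8 and 42.0 CPM. Ages were far apart in both, with 3.02 ± 0.32 (adjusted p = 2.85e-07) and 2.38 ± 0.31 (adjusted p = 5.8e-06), and the call held in both genotypes in all 24 refits lacking 1 library. It was also made without the libraries with *Crisp1*, where the single library per genotype at day 26 is assumed to vary like the other groups. *Lamb3*, a chain of epidermal laminin, was at 0.472, 0.527, 0.694 and 0.432 CPM in WT at day 20 and at 3.302 and 4.16 CPM at day 26. In KO the levels were 0.725, 0.589, 2.31 and 1.35 CPM and then 4.13 and 4.53 CPM. Again the ages did not overlap, with 2.77 ± 0.45 (adjusted p = 4.11e-05) in WT and 1.79 ± 0.41 (adjusted p = 0.00121) in KO. *Lama3*, its partner in that trimer, was lower at day 26 in both genotypes, though not in WT when scaled to the Sertoli list.

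*Col27a1* and *Col2a1*, the fibrillar members that were higher in KO, also rose with age, by 1.59 ± 0.32 and 1.81 ± 0.39 in WT and by 1.75 ± 0.31 and 1.56 ± 0.38 in KO. *Col19a1*, lower in KO on average, rose by 2.17 ± 0.36 in WT (adjusted p = 4.34e-05) and by 1.03 ± 0.41 in KO (adjusted p = 0.0393), the KO call being lost without KO_d20_2, KO_d20_3, KO_d20_4 or KO_d26_1. *Col9a3* rose by 1.21 ± 0.34 and 1.63 ± 0.33. Of 9 FACIT genes, 5 were higher and 1 lower in WT, and 6 were higher and 1 lower in KO. The lower one was *Col9a2*, at -3.55 ± 0.84 in WT (adjusted p = 0.00179, lost without WT_d26_1) and -1.75 ± 0.73 in KO (adjusted p = 0.0491, called in 9 of the 24 fits), down to 1 and 7 counts in the WT libraries of day 26.

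**Figure D5:**
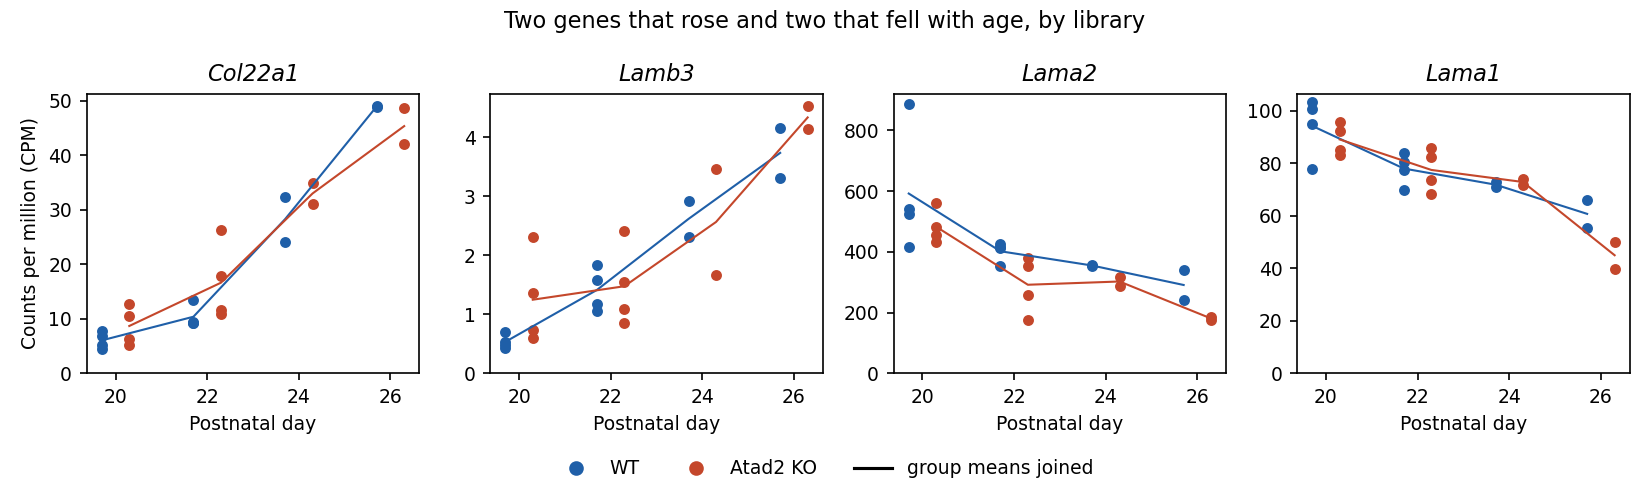
Level of *Col22a1*, *Lamb3*, *Lama2* and *Lama1* in each library by postnatal day, in CPM on linear axes from 0, WT in blue and *Atad2* KO in red, with lines joining the group means. The means of *Col22a1* and *Lamb3* are highest at day 26 in both genotypes, and those of *Lama2* and *Lama1* lowest.

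Whether the change with age differed between genotypes was tested directly. edgeR called 0 members and 0% of all genes, DESeq2 called 0 members, and 2 members had an unadjusted p under 0.05 (10.8% of all genes). These were *Lamc3*, with a difference of -0.85 ± 0.36 (KO change minus WT change, unadjusted p = 0.0281), and *Lamb1*, at -0.70 ± 0.32 (unadjusted p = 0.0439). The 8 members called in KO and not in WT are thus not shown to differ between genotypes.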

How the data were processed

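Ribosome-depleted stranded total RNA of testes was sequenced. The authors aligned paired reads with STAR 2.7.11b to mm10 and deposited counts per gene from HTSeq, which counted read pairs over exons on the reverse strand and left out pairs with several alignments. Chains with near-identical stretches can lose pairs in this way. The version of the gene models is not given in the sources used here. In the 24 tables, 5 tally rows that name no gene were left out, among them pairs outside any feature (45.1 to 58.5% of pairs), pairs with several alignments (4.74 to 13.7%) and ambiguous pairs (0.132 to 0.229%). No per-sample column was left unused (0).

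Counts were fitted in R 4.3.3 with edgeR 4.0.16 (TMM, filterByExpr with a minimum count of 10, robust quasi-likelihood fit, 1 coefficient for each of the 8 groups), and p-values were adjusted by Benjamini-Hochberg over all 17170 genes tested, with a threshold of 0.05. Contrasts were KO against WT on each day, their mean, a joint test of differences between days, day 26 against day 20 in each genotype and the difference of these changes. Levels are CPM over TMM-scaled library totals of the genes tested, per kb over the union of GENCODE M21 exons where genes are compared. The procedure was tested on simulated data. Those libraries were independent with the same dispersion for every gene, so the test does not cover libraries that differ in composition. DESeq2 1.42.0, RLE size factors, no filter, separate fits, a replicate block, scaling to Sertoli markers, an epididymis covariate and leaving out libraries were the alternatives. Leaving out the libraries with *Crisp1* was chosen after seeing the data.

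The members, marker lists and pathway lists were chosen with earlier results of these data known. Genes were named by rule: all laminins, the 10 collagens highest per kb, members called in a KO contrast, the 8 largest called age changes per genotype among genes at a mean of 1 CPM or more in either group, collagen pairs with divergent starts within 2 kb, and up to 4 called genes of each pathway list. The values of 1 member are not reported here, and it is counted among the members but not drawn. Replicates showed more than sampling noise between them (lowest chi-square per degree of freedom 5.07), so no library was counted as a duplicate. The study calls the replicates biological. How many animals a library holds is not given in the sources used here, and p-values measure the spread between these samples.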

Additional observations from a re-analysis of the deposited data

Results flagged for a closer look

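In 144 checks of groups of 4 libraries, 8 had a library far from the other 3 by Dixon's criterion, and chance alone gives about 1 in 20. The library KO_d22_1, with *Crisp1*, was high in *Col14a1* at 22.0 CPM (9.85 to 10.7 in the others) and in *Col9a2* at 0.545 CPM (0.120 to 0.134). WT_d20_3, with *Crisp1*, was high in *Col1a1* at 831 CPM (332 to 383) and in *Col1a2* at 1210 CPM (644 to 726). WT_d20_2 was low in *Col18a1* at 69.8 CPM (119.7 to 124), WT_d22_1 was high in *Col22a1* at 13.5 CPM (9.21 to 9.49) and low in *Col4a5* at 62.4 CPM (72.6 to 74.2), and KO_d20_1 was low in *Lama3* at 7.69 CPM (9.31 to 9.48).

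For 3 of the 36 named genes checked the KO and WT libraries were apart in opposite directions on different days, as they were for 4 of the 54 tested members (7.41%) and for 10.6% of all genes tested, so the count is not a result about these genes. *Col4a3* had a log2 fold change of 0.17 at day 24 and -0.48 at day 26, and *Col4a4* of 0.06 and -0.65, with 2 libraries per genotype on each day. *Col9a2* had -2.68 at day 22, -1.84 at day 24 and 1.15 at day 26, the last at 1 to 11 counts per library. *Col26a1*, which the naming rule did not pick and which was chosen after its values were seen, had 1.47 at day 24 and -0.49 at day 26, also without overlap. These pairs of days were not compared directly. In the joint test over the 4 days the differences were not called.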

How the results depend on the processing

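Numbers of members called moved by more than 1.5 times under these settings. For KO against WT at day 20 (1 called), DESeq2 gave 2, the groups of that day alone 0, scaling to the Sertoli list 3 (2 higher and 1 lower) and leaving out the libraries with *Crisp1* 0. At day 22 (13), testing without a low-count filter gave 7, the groups alone 0, the replicate block 6 and leaving out the libraries with *Crisp1* 1. At day 24 (1), DESeq2 gave 2, the groups alone 0, Sertoli scaling 0 and leaving out the *Crisp1* libraries 0. At day 26 (0), DESeq2 gave 1, the groups alone 14 (12.8% of all genes) and the epididymis covariate 1. For the mean of the days (13), DESeq2 gave 20 and leaving out the *Crisp1* libraries 1. With age in WT (19), the groups alone gave 6 and leaving out the *Crisp1* libraries 5, and in KO (27) the latter gave 9. The causes were not tested.

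Leaving out each library in turn gave 1 to 3 calls at day 20 (3 without WT_d20_2), 1 to 19 at day 22, 0 to 1 at day 24 (0 without WT_d24_2, KO_d24_1 or KO_d24_2) and 0 to 1 at day 26 (1 without WT_d20_2 or KO_d22_4). The range was 6 to 21 for the mean of the days (6 without WT_d24_2 or KO_d26_2, 8 without KO_d24_1 or KO_d26_1, 21 without KO_d22_1), 10 to 19 for age in WT (10 without WT_d26_2) and 19 to 27 for age in KO. Beside the libraries named in the report, day 22 had 6 to 8 calls without WT_d20_1, WT_d20_4, KO_d20_3, KO_d22_3 or any library of days 24 and 26 other than WT_d24_1. The joint test and the difference of age changes had 0 calls in every setting. Scaling to the Sertoli list moved the median KO effect of all genes to 0.241 at day 20 and to -0.157 at day 22, where 13 members were called, all lower and *Col27a1* not among them. It turned the WT age change of *Col6a4* to 0.53, *Lama1* to 0.07, *Lama3* to 0.22, *Lama5* to 0.15, *Lamb1* to 0.025 and *Lamc1* to 0.049, and split the KO age calls into 9 higher and 9 lower.

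Same-numbered WT and KO libraries did not deviate together at day 22 (correlations from -0.448 to 0.035). At day 20 the 4 pairs were at 0.006, 0.296, 0.31 and 0.412. With 2 libraries per group the deviations mirror each other, so day 24 gives only the value 0.322 and day 26 only 0.348. *Crisp1* at 10 CPM or more fell on number 3 in both genotypes at day 20 and on number 2 in both at days 24 and 26, but not on shared numbers at day 22. Not every pair was over 0.1, so the numbers were not taken as pairs, and not every library correlated best with its own number. This does not show that same-numbered libraries were unmatched. The replicate block was a term for the replicate number, shared over all days and both genotypes. Pairing of WT and KO libraries within a day was therefore not tested with it. With this block the calls were 1, 6, 1 and 0 on the 4 days, 13 in the mean and 18 and 23 with age. Over the alternatives, values of named genes that were called as reported kept their call 1815 times, lost it 375 times and reversed 5 times, and values that were not called gained a call 74 times. Values at 1 to 3 counts, as for *Col9a2* in KO_d22_2, KO_d22_3, KO_d22_4 and WT_d26_1, are limited by depth, and days 24 and 26 by 2 libraries per group.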
